A study of Mus musculus with 6 samples.

Results

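Transcripts of disease-associated phagocyte genes were examined in adult forebrain cortex of C57BL/6 mice. The set consists of 10 genes: Cd68, Trem2, Tyrobp, Cst7, Lpl, Itgax, Clec7a, Lgals3, Axl and Spp1. A gene was included when a probe set of the array mapped to its symbol alone, which held for 9 of the 10, out of 19938 genes with such a probe set. Each of the 9 had a single probe set, and Spp1 was not analysed here. The 3 arrays labelled Dicer KO came from animals of genotype CamKII-Cre/+;Dicer flox/flox. The 3 control arrays came from littermates. A control was either Cre-positive with a single floxed allele (CamKII-Cre/+;Dicer flox/+) or Cre-negative with both alleles floxed (+/+;Dicer flox/flox), and it is not told which animal was which. The CamKII promoter drives Cre in excitatory forebrain neurons and not in phagocytes, so the recombination was not directed at the cells that make most of these transcripts. Each array carried total RNA of 1 animal, the ages are given only as adult, and the labels call the arrays biological replicates.

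Microglia are the resident phagocytes of the brain. Around dying neurons, plaques and demyelinated axons they lower transcripts of their resting state and raise a shared set of transcripts for lipid handling, lysosomal digestion and debris uptake, a state called disease-associated. Full entry into this state depends on TREM2, a lipid-sensing receptor that signals through the adaptor TYROBP, also called DAP12. The series title names neurodegeneration, and the comparison here asks whether transcripts of this phagocyte state differed between cortex of the labelled Dicer KO animals and of their littermates.

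Median log2 values per array ran from 7.13 to 7.22, and the correlation between any 2 arrays from 0.9749 to 0.9915. Dicer1 itself read higher in the arrays labelled Dicer KO, at 9.58, 9.68 and 9.46 against 9.17, 9.21 and 9.18, a difference that did not pass the test (0.39 ± 0.09 SE, limma adjusted p = 0.102). This transcript value therefore does not check the deletion, and all directions rest on the labels. Camk2a, a kinase gene of cortical excitatory neurons, read 12.65 in labelled KO array 3, the lowest of the 6, and 13.04 to 13.25 in the other 5 arrays. The Y-linked transcript Eif2s3y was high in labelled KO arrays 1 and 3 and control array 2, so both groups held both sexes, in unequal numbers. Labelled KO array 3 stood apart for some genes: 53 of 19938 genes lay more than 1 log2 unit above the mean of the other 5 arrays there, against 3 to 23 genes in each of the other arrays. In the downward direction, control array 3 had the most such genes, 35, against 13 in labelled KO array 3 and 1 to 11 in the other arrays. A list of striatal genes chosen after the data were seen averaged 0.51 above the control mean in labelled KO array 3, and between -0.08 and 0.08 in the other 5 arrays. The part of this striatal signal in the results was not tested.

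Most disease-associated phagocyte genes were high in 1 of the 3 labelled Dicer KO animals and near control levels in the other 2. Labelled KO array 3 gave the highest value of the 6 arrays for 8 of the 9 genes, where 20.1% of all genes were highest in that array. For 7 of the 9 genes it exceeded every other array by more than 0.5 log2 units, which held for 0.642% of all genes. Averaged over the 9 genes, the deviation from the control mean was 1.16 in labelled KO array 3 but 0.03 and -0.04 in labelled KO arrays 1 and 2, and it ran from -0.09 to 0.13 in the controls. In bulk tissue, more phagocytes and more RNA of these genes per phagocyte cannot be told apart.

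Between the groups, none of the 9 genes passed limma's test at an adjusted p of 0.05 over all genes, where 0.281% of all genes did (56 of 19938), 0.0903% in the higher and 0.191% in the lower direction. Their limma adjusted p lay between 0.266 and 0.827, and 1 gene, Cd68, had an unadjusted p under 0.05, as did 14.4% of all genes. The differences of all 9 were above 0, with a median of 0.42 log2 units, where the median over all genes was -0.01 and 47.3% of genes were above 0. Only for Cd68 and Clec7a did every labelled KO array lie above every control array, and 9.30% of all genes showed that. The standard deviation among the 3 labelled KO arrays had a median of 0.675 over the 9 genes, against 0.110 among the 3 controls. Over all genes those medians were 0.113 and 0.111.

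**Figure D1:**
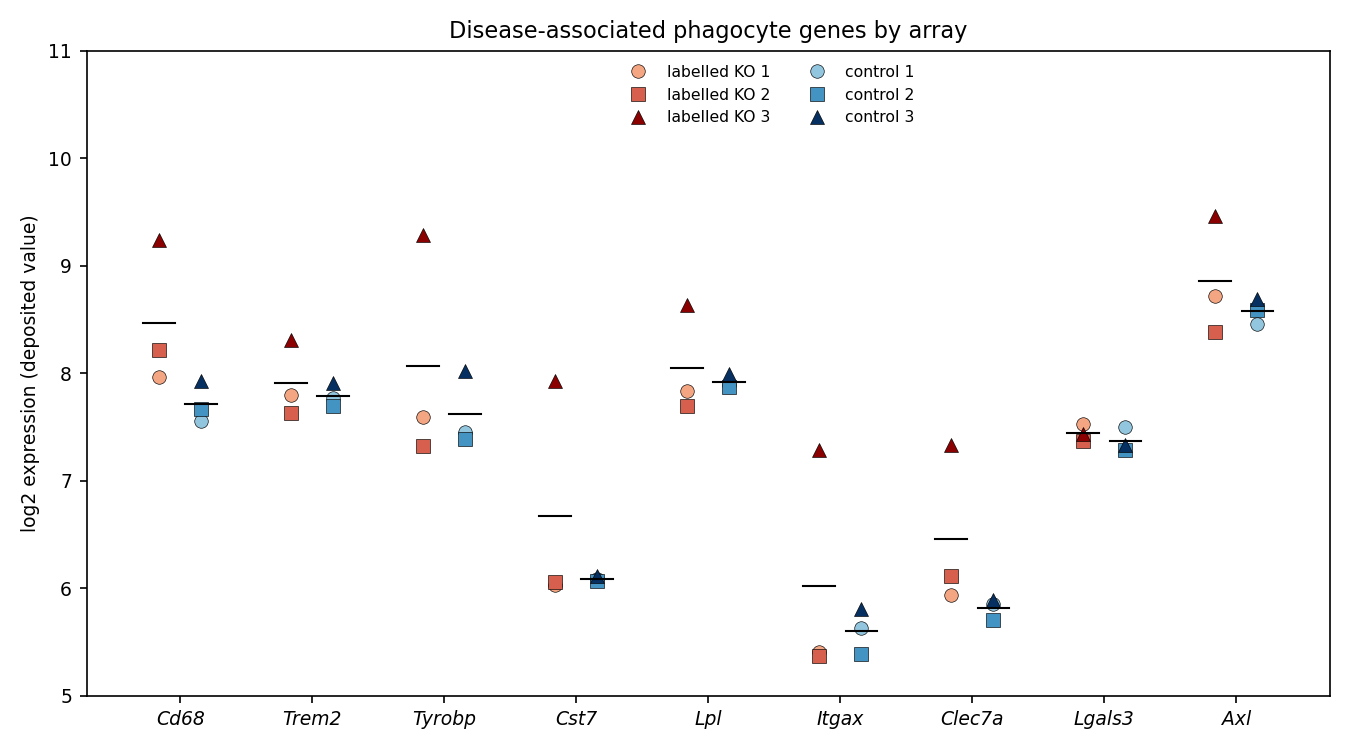
Deposited log2 expression (vertical axis) of the 9 disease-associated phagocyte genes in each of the 6 arrays. Symbols are single animals, red shades labelled Dicer KO and blue shades control, and bars are group means (n = 3). Labelled KO array 3 (dark red triangle) lies above all other arrays for every gene but Lgals3.

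Among the receptors and their adaptor, Tyrobp, the ITAM-bearing adaptor that carries the signal of TREM2, read 7.60, 7.32 and 9.29 in labelled KO arrays 1 to 3 and 7.45, 7.39 and 8.02 in control arrays 1 to 3. Labelled KO array 3 was 2.42-fold above the highest of the other arrays, control array 3, while labelled KO array 2 was the lowest of all 6. The group difference of 0.45 ± 0.44 (SE) did not pass (limma adjusted p = 0.708). Trem2 read 7.80, 7.63 and 8.31 against 7.76, 7.70 and 7.91. The pattern was that of Tyrobp but flatter, with labelled KO array 3 only 1.32-fold above the next highest array. Its group difference was 0.12 ± 0.16 (SE; limma adjusted p = 0.785).

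Clec7a encodes Dectin-1, a pattern receptor for beta-glucan that also signals through the kinase SYK. It read 5.93, 6.11 and 7.33 against 5.86, 5.70 and 5.89. The groups did not overlap, but labelled KO array 1 cleared control array 3 by a margin of hundredths of a log2 unit, and with each array centred on its median the groups overlapped. Group means were 6.46 ± 0.76 and 5.82 ± 0.10 (SD, n = 3 each), and 0.64 ± 0.31 (SE) between them did not pass (limma adjusted p = 0.389).

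Itgax, the CD11c chain of complement receptor 4, read 5.41, 5.37 and 7.29 against 5.63, 5.39 and 5.80. Labelled KO arrays 1 and 2 lay close to the lowest control, and labelled KO array 3 was 2.81-fold above the highest other array. The group difference was 0.42 ± 0.44 (SE; limma adjusted p = 0.729). Axl is a receptor tyrosine kinase that takes up apoptotic cells through bridging proteins bound to their surface, and it is also made by endothelial and astroglial cells. It read 8.72, 8.38 and 9.47 against 8.45, 8.59 and 8.69. Labelled KO array 3 was again highest, 1.68-fold above the next, and labelled KO array 2 was lowest. The difference of 0.28 ± 0.23 (SE) did not pass (limma adjusted p = 0.652).

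Among the secreted and lysosomal effectors, Cst7 set a single animal apart. It encodes cystatin F, an inhibitor of lysosomal cysteine proteases that is scarcely made by resting microglia. It read 6.03, 6.05 and 7.93 against 6.08, 6.07 and 6.11. The 5 other arrays spanned only 0.086 log2 units, and labelled KO array 3 stood 3.53-fold above the highest of them. The whole difference lay in 1 animal. Group means of 6.67 ± 1.09 and 6.09 ± 0.022 (SD, n = 3 each) did not differ in the test (0.58 ± 0.43 SE, limma adjusted p = 0.597). Natural killer and cytotoxic T cells also make Cst7. In labelled KO array 3, the 17 measured lymphocyte markers averaged 0.10 above the control mean and 6 of them were highest there, where 20.1% of all genes were. The cytotoxic granule gene Nkg7 read 6.16 there against 5.87 to 6.18 in the other 5 arrays, and the T cell receptor gene Cd3g 6.28 against 5.46 to 5.94.

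Cd68, a lysosomal membrane glycoprotein used as a marker of phagocytic activity, read 7.96, 8.22 and 9.24 against 7.56, 7.66 and 7.93. All 3 labelled KO arrays lay above all controls, but labelled KO array 1 exceeded control array 3 by only a few hundredths and the groups overlapped with each array centred on its median. Group means were 8.47 ± 0.67 and 7.72 ± 0.19 (SD, n = 3 each). At 1.69-fold (0.75 ± 0.28 SE on the log2 scale), the contrast had the smallest p of the set and did not pass over all genes (limma adjusted p = 0.266).

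Lpl encodes lipoprotein lipase, which releases fatty acids from lipoproteins and is made by neurons as well as by activated microglia. It read 7.83, 7.69 and 8.63 against 7.89, 7.88 and 7.99. Both other labelled KO arrays lay below all 3 controls, and the difference was 0.13 ± 0.21 (SE; limma adjusted p = 0.827). Lgals3 encodes galectin-3, a carbohydrate-binding protein recruited to damaged lysosomes. It read 7.53, 7.37 and 7.43 against 7.50, 7.29 and 7.33 and was the exception to the pattern: labelled KO array 3 was in the middle of its range. The difference of 0.07 ± 0.09 (SE; limma adjusted p = 0.778) was smaller than its error.

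The stretch of 250 bases before the annotated start is shown for the 4 genes with an entry that separated labelled KO array 3 by more than 1 log2 unit from every other array, so that the sequences of genes that were high together can be compared. They are from the RefSeq promoter table of build GRCm38.p6, which held 7 of the 9 genes, and are written 5′ to 3′ on the gene's strand. Capitals mark matches on either strand to GAGGAAG (a core of the myeloid factor PU.1) or TGANTCA (the AP-1 element), and these do not overlap each other. Cst7 lies on chr2:150570165-150570414 (plus strand), Itgax on chr7:128129300-128129549 (plus strand), Clec7a on chr6:129472786-129473035 (minus strand) and Cd68 on chr11:69666171-69666420 (minus strand).
Cst7: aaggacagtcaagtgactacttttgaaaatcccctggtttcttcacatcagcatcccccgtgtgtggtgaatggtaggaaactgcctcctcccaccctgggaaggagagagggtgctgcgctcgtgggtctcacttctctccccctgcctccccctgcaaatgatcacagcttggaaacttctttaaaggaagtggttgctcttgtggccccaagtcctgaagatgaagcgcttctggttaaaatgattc
Itgax: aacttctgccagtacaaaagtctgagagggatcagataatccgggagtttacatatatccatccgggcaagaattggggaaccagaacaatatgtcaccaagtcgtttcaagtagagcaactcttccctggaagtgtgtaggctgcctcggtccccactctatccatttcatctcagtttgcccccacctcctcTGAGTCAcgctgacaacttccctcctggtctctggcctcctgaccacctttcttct
Clec7a: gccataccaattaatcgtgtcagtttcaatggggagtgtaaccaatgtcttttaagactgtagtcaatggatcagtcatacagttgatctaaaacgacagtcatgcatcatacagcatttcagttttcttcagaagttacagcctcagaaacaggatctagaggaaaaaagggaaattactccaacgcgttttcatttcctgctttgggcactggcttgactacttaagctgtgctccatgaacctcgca
Cd68: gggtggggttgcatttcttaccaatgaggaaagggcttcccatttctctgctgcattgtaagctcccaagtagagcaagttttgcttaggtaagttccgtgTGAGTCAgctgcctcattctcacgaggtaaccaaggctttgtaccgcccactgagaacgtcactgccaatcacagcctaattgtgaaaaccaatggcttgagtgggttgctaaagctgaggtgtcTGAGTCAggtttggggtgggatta

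Cd68 holds 2 matches to TGANTCA, beginning 149 and 24 bases before the start, and Itgax holds 1, beginning 56 bases before it. Of the 7 genes with a stretch in the table, 3 (Cd68, Itgax and Trem2) hold TGANTCA, which occurs in 6.75% of all 32851 stretches of that length. GAGGAAG occurs in 2 of the 7 (Trem2 and Axl) and in 10.6% of all stretches, and CACGTG, the E box of the MITF family, in 0 of the 7 and 6.02%. Cst7 and Clec7a hold none of the 3 motifs in this window, so no motif was common to all 4 genes shown, while Cd68 and Itgax share the letters TGAGTCA. These matches describe letters and not binding.

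Without labelled KO array 3, the differences no longer lay on one side of 0. The median difference of the 9 genes was -0.05, where the median over all genes was -0.02, and 3 of the 9 differences were above 0. None of the 9 was called by limma in the 5 remaining arrays, where 0.647% of all genes were (0.276% higher and 0.371% lower). Cd68 was the 1 gene with an unadjusted p under 0.05, as were 16.9% of all genes. For 2 of the 9, Cd68 and Clec7a, both remaining labelled KO arrays lay above all controls, where 16.1% of all genes did. Cd68 stayed at 0.37 ± 0.13 and Clec7a at 0.21 ± 0.11 (SE), with limma adjusted p of 0.216 and 0.367. The other 7 genes ran from -0.22 for Itgax to 0.08 for Lgals3. This leaves 2 labelled KO arrays against 3 controls.

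**Figure D2:**
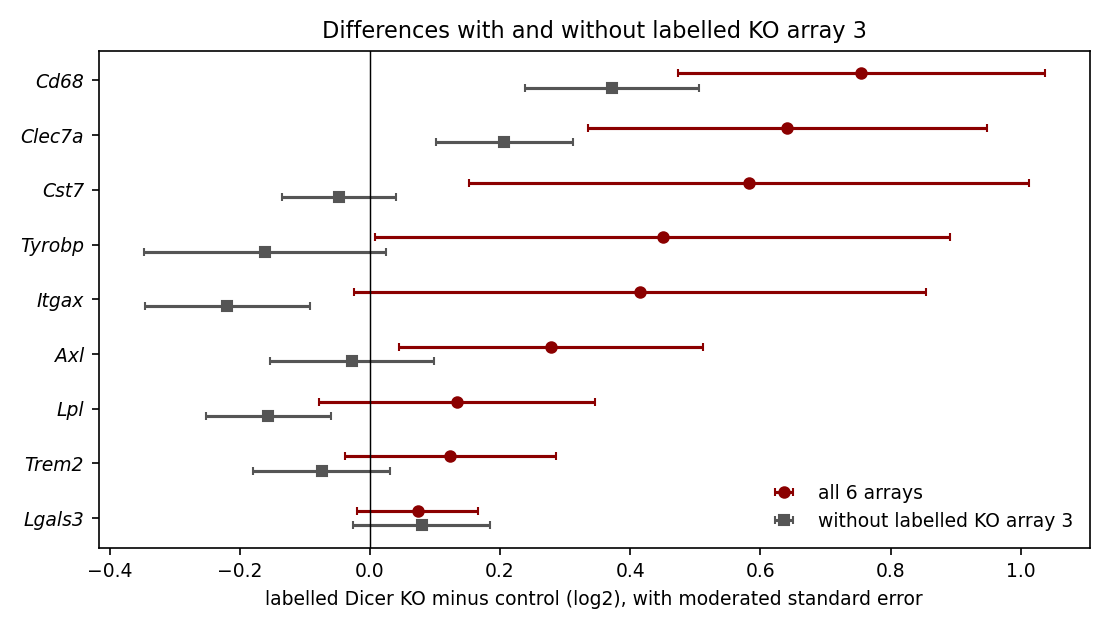
Difference between labelled Dicer KO and control arrays (horizontal axis, log2) for each of the 9 genes, with the moderated standard error as bars, over all 6 arrays (red circles) and without labelled KO array 3 (grey squares). Cd68 falls from 0.75 to 0.37, and 6 genes move from above 0 to below 0.

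The genes were then ranked among all 19938 by the excess of labelled KO array 3 over the mean of the other 5 arrays. Cst7 ranked 4 with an excess of 1.86, Itgax 7 with 1.77, Tyrobp 8 with 1.74, Clec7a 15 with 1.43 and Cd68 18 with 1.37. These 5 genes are among the 53 with an excess over 1, and the 99th percentile of all genes was 0.64. Axl at 0.90 (rank 70) and Lpl at 0.78 (rank 106) were also beyond that percentile, Trem2 at 0.55 (rank 350) was just short of it, and Lgals3 at 0.03 was near the median of all genes, 0.01. Ahead of Cst7 stood the Y-linked genes Eif2s3y and Uty, which follow the sex of the animals, and the chemokine gene Ccl3.

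**Figure D3:**
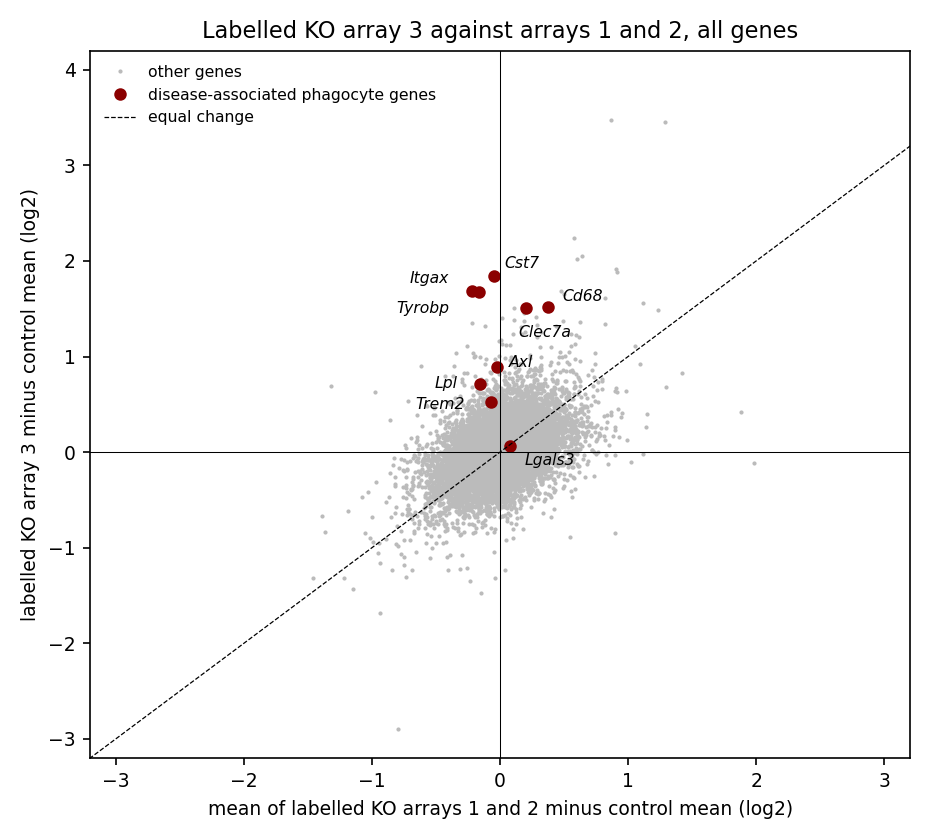
Mean log2 difference of labelled KO arrays 1 and 2 from the control mean (horizontal axis) against the difference of labelled KO array 3 from the same mean (vertical axis). Grey points are other genes, red points the 9 disease-associated phagocyte genes, and the dashed line marks equal change. Cst7, Itgax and Tyrobp lie near 0 on the horizontal axis and above 1.5 on the vertical one, and Lgals3 lies near the origin.

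Further genes of the disease-associated state behaved less uniformly. Of 39 measured genes (of 40 listed), none was called in either direction over 6 arrays, where 0.281% of all genes were. The median difference of the 39 was 0.18, and 27 were above 0 (47.3% of all genes). In labelled KO array 3, 26 were highest (20.1% of all genes), 8 of them by more than 0.5 log2 units (0.642%). Cd63, a tetraspanin of late endosomes, read 8.50, 8.31 and 9.80 against 8.15, 8.31 and 8.44, the same single-animal pattern as Cst7. Apoe, the lipoprotein that microglia in this state secrete and that astrocytes make in bulk, instead read 13.36, 13.40 and 13.63 against 13.09, 13.07 and 13.13, so its groups did not overlap (0.37 ± 0.10 SE, limma adjusted p = 0.140).

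Ccl3, a chemokine that attracts monocytes, was one of 8 genes of this wider list whose labelled KO arrays all lay above all controls (8 of 39, where 9.30% of all genes did). It read 7.38, 7.45 and 9.58 against 6.27, 6.01 and 6.11. Labelled KO array 3 was again far above the rest, but arrays 1 and 2 also cleared the controls. The difference was 2.01 ± 0.49 (SE; limma adjusted p = 0.125), and without labelled KO array 3 it was 1.28 ± 0.11 (SE; limma adjusted p = 0.0110), which passed. Gpnmb, a transmembrane glycoprotein of lipid-laden macrophages, was between 6.49 and 6.78 in all 6 arrays, with labelled KO array 1 the lowest.

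Genes that act with or downstream of TREM2, TYROBP and CLEC7A were examined next. Of 34 measured, 0 were called, where 0.281% of all genes were, and the median difference was 0.04. Labelled KO array 3 was highest for 18 of the 34, where 20.1% of all genes were highest there. It exceeded all other arrays by 0.5 for 0 of them. Syk, the kinase recruited by phosphorylated TYROBP, read 6.51, 6.35 and 6.55 against 6.69, 6.54 and 6.75, so labelled KO array 3 lay inside the control range. Pik3r1, a regulatory subunit of phosphoinositide 3-kinase found in many cell types, had the smallest p of the list and read 11.09, 11.18 and 11.04 against 10.67, 10.85 and 10.72 (0.36 ± 0.09 SE, limma adjusted p = 0.129). Of 24 phagocyte transcription factors 0 were called and their median difference was -0.04. Differences of 7 were above 0, where 47.3% of all genes were, and 8 factors were highest in labelled KO array 3. Spi1, which encodes the myeloid factor PU.1, read 6.19, 6.16 and 6.60 against 6.32, 6.32 and 6.47, highest in labelled KO array 3 by a small margin.

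Among 27 measured partners, ligands and receptors of the set, 0 were called, where 0.281% of all genes were, and the median difference was 0.05. Of the 27, 16 were highest in labelled KO array 3 (20.1% of all genes), 4 of them by more than 0.5 log2 units (0.642%). The smallest p belonged to the broadly expressed integrin gene Itgb1, an osteopontin receptor chain, at 0.53 ± 0.11 (SE; limma adjusted p = 0.0814), and to the galectin gene Lgals8, at 0.48 ± 0.10 (SE; limma adjusted p = 0.0845). Itgb2, the beta chain that pairs with CD11c, read 7.15, 7.03 and 8.01 against 7.08, 7.20 and 7.23, with labelled KO array 3 above all others, as for Itgax. Ctsc, the protease cathepsin C that cystatin F inhibits, read 7.36, 7.48 and 8.49 against 6.95, 7.48 and 7.30. Here too labelled KO array 3 alone lay above every control. Of the other receptors in the family of Axl, Mertk read 9.59, 9.37 and 9.79 against 9.48, 9.82 and 9.51, with the groups intermingled. Tyro3, its neuronal relative, read 10.11, 10.06 and 10.07 against 10.41, 10.49 and 10.40 and was lower in all 3 labelled KO arrays (-0.35 ± 0.08 SE), short of the threshold (limma adjusted p = 0.102). The bridging ligand gene Pros1 was highest in labelled KO array 3 at 8.70, and Gas6 stayed between 9.38 and 9.54.

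General macrophage and microglia markers were also high in labelled KO array 3, and markers of the resting state by a smaller average. In labelled KO array 3 the 26 pan-macrophage and microglia markers averaged 0.70 above the control mean. Of all genes, 20.1% were highest there and 0.281% were called between the groups. Of these 26 markers, 24 were highest there and 0 were called. Among them Ptprc, the pan-leukocyte gene of CD45, read 6.87, 6.92 and 8.05 against 6.82, 7.01 and 7.32, and the cytoskeletal microglia gene Aif1 read 6.56, 6.70 and 7.06 against 6.66, 6.78 and 6.91. Csf1r, the survival receptor of microglia, read 9.50, 9.27 and 10.30 against 9.43, 9.55 and 9.85. The 20 homeostatic markers averaged 0.23 in labelled KO array 3 and -0.12 and -0.28 in arrays 1 and 2. Of these 20, 10 were highest in labelled KO array 3, where 20.1% of all genes were. Csf1r, which is on both lists, was among them. P2ry12, a purinergic receptor of resting microglia, read 7.17, 6.96 and 7.47 against 7.11, 7.22 and 7.55, and Tmem119 read 7.995, 7.737 and 8.002 against 8.20, 8.16 and 8.25. P2ry12 lay inside the control range in labelled KO array 3. Tmem119 lay below every control in all 3 labelled KO arrays (-0.29 ± 0.10 SE, limma adjusted p = 0.227). The homeostatic list had 0 calls over 6 arrays, where 0.281% of all genes were called.

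Of the 20 homeostatic differences 10 were above 0, where 47.3% of all genes were. Sparc, a matrix protein gene also made by other cells and the one with the smallest p of the list, read 10.68, 10.83 and 10.98 against 10.28, 10.35 and 10.08, higher in all 3 labelled KO arrays (0.59 ± 0.11 SE, limma adjusted p = 0.0728). Slc2a5, a fructose transporter gene, read 6.85, 6.49 and 6.93 against 7.12, 7.07 and 7.30, lower in all 3. For 2 markers chosen after their values were seen, the labelled KO group was split. Fcrls, an Fc receptor-like gene of microglia, read 7.53, 6.66 and 9.11 against 8.32, 8.40 and 8.53. Olfml3, a secreted matrix protein gene of microglia, read 7.996, 7.555 and 9.385 against 8.59, 8.71 and 8.95. Labelled KO arrays 1 and 2 lay below every control and labelled KO array 3 above every control in both genes. Over 6 arrays the differences did not pass, and without labelled KO array 3 both fell, Fcrls at -1.32 ± 0.22 and Olfml3 at -0.98 ± 0.15 (SE; limma adjusted p of 0.0420 and 0.0412).

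Other cell types that could supply these transcripts were examined through their markers. In labelled KO array 3 the 20 border macrophage and monocyte markers averaged 0.19 above the control mean. Of them, 10 were highest there, where 20.1% of all genes were. Within that list Lyz2, the lysozyme gene shared by monocytes and activated microglia, read 8.69 against 7.19 to 7.71 in the other 5 arrays. The border macrophage gene Mrc1 read 7.46 there and 6.98 to 7.37 elsewhere, and Cd163 read 6.27 and was within the range of the others. Averages in labelled KO array 3 were 0.16 for 12 dendritic cell markers, 0.10 for 17 lymphocyte markers and -0.07 for 11 neutrophil and red cell markers. No member of these 4 lists was called, where 0.281% of all genes were. No detection call was used, so background signal cannot be set apart in dim probe sets.

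Glial and neuronal markers were read in the same way. The 16 astrocyte markers averaged 0.47 above the control mean there, against 0.11 and 0.0016 in labelled KO arrays 1 and 2, and the 17 reactive astrocyte genes averaged 0.48, against 0.21 and 0.22. Gfap, the astrocyte filament gene, read 9.10, 8.92 and 10.44 against 8.34, 8.35 and 8.55 (1.07 ± 0.33 SE, limma adjusted p = 0.196). Vim, another filament gene, rose by 0.52 ± 0.08 (SE; limma adjusted p = 0.0480), the 1 call in both lists. Of all genes, 0.281% were called, 0.0903% in the higher and 0.191% in the lower direction. The 17 complement genes, of which Itgax is one, averaged 0.59 there and the 22 lysosome and cathepsin genes 0.45. The 11 excitatory neuron markers averaged -0.15 there and -0.09 and -0.11 in the other 2 labelled KO arrays. Nrgn, the gene of the postsynaptic protein neurogranin, read 11.27, 11.31 and 11.22 against 11.97, 11.90 and 11.76 and fell by 0.60 ± 0.09 (SE; limma adjusted p = 0.0413), the 1 call in that list. The complement and lysosome lists, and the lists that follow, had 0 calls each. Averages in labelled KO array 3 were 0.23 for 14 oligodendrocyte markers, which reached 0.33 in control array 3, 0.10 for 15 endothelial and mural markers and 0.31 for 12 meningeal fibroblast markers. Their part in the values of the phagocyte genes was not tested.

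**Figure D4:**
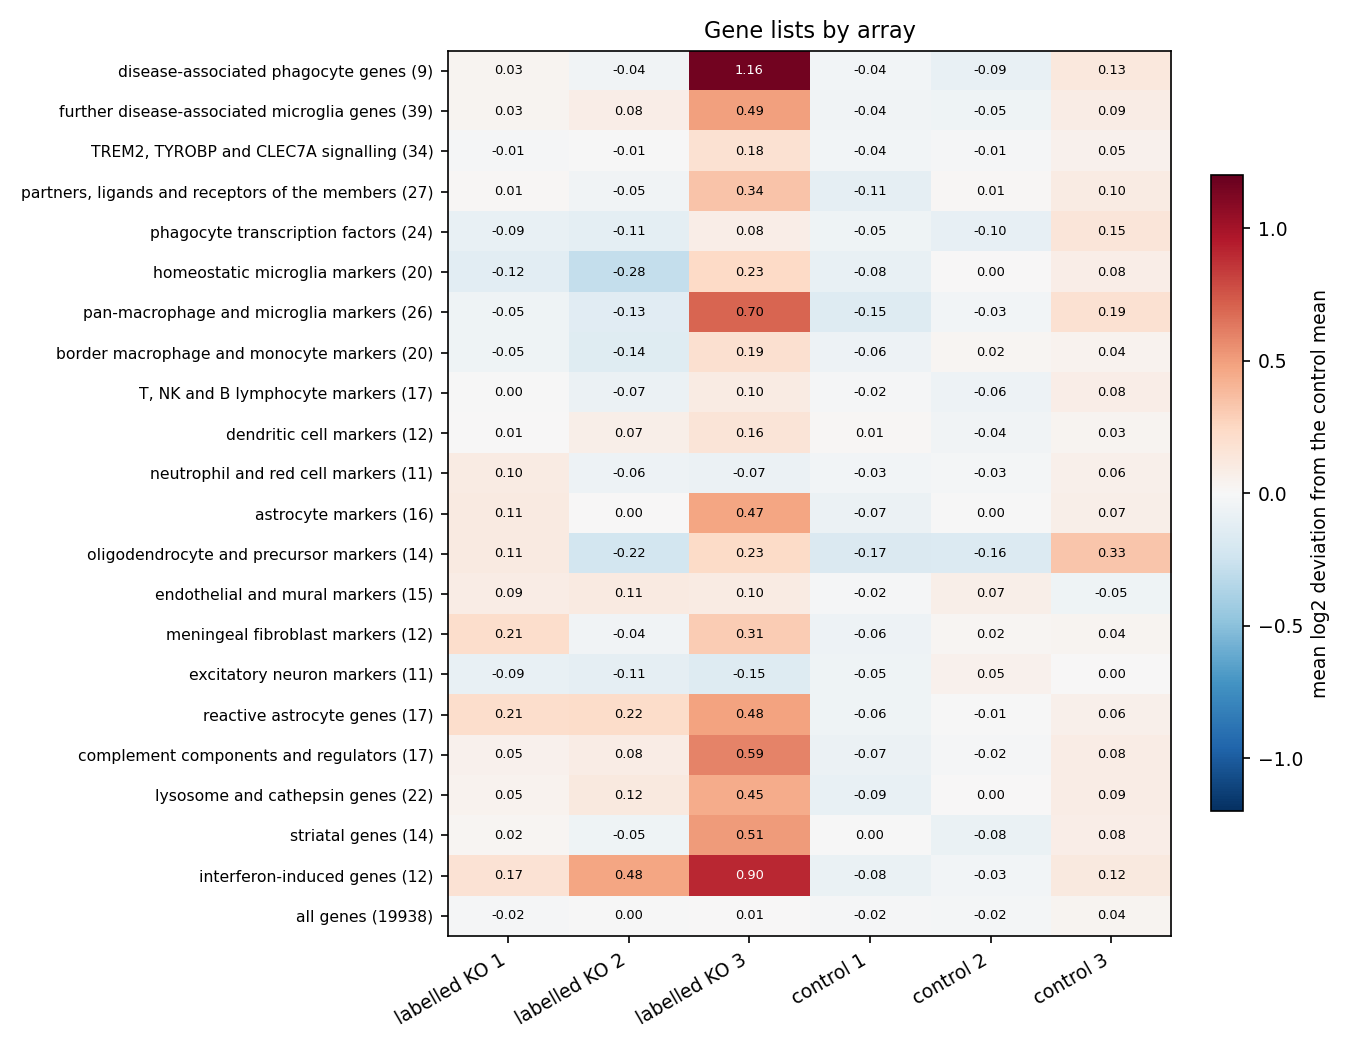
Mean log2 deviation from the control mean (colour and printed value) of each gene list in each of the 6 arrays, with the number of measured genes in brackets. The disease-associated phagocyte genes reach 1.16 in labelled KO array 3 and stay within 0.13 of 0 in every other array.

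The genes closest in profile were found by the root mean square difference of mean-centred log2 values over the 6 arrays, which is dominated by labelled KO array 3. Itgax and Tyrobp were the closest gene to each other, with a difference of 0.135, and Itgax was also closest to Cst7 (0.138). Lyz2 was closest to Cd68 (0.0605) and to Clec7a (0.0964). Shc1 was closest to Trem2 (0.0216), Tmem176b and the cathepsin gene Ctsd to Lpl (0.0319 and 0.0329), and Tlr13 and Itgb2 to Axl (0.0661 and 0.0742). Olfr970 was closest to Lgals3 (0.010), whose own profile was nearly flat.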

How the data were processed

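The deposited table of this Affymetrix whole-transcript array holds log2 values, 1 for each probe set and array (200 ng of RNA per animal, per the labels). The submitters' processing notes list RMA and limma with no version. RMA corrects background, equalises quantiles and summarises probes, so a change shared by most genes is removed. The number of arrays limits the precision.

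Of 35557 probe sets, 21789 map to 1 gene symbol in the platform annotation. Of these, 21698 took the GRCm38.p6 symbol of their gene identifier, changed or not. The probe set brightest on average was kept for each of 19938 genes. All genes were fitted with limma 3.58.1 in R 4.3.3 with group as the only term, two-sided, Benjamini-Hochberg adjusted over all genes, threshold 0.05. Errors called SE are moderated. The error behind each p-value is the variation among the animals sampled. The fit was tested on simulated data.

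The genes, the 19 lists and the tests were chosen with earlier results of these data known. The rule for naming took the set, related genes chosen whatever their values, the 4 genes of smallest p in each list, and the 3 closest profiles per gene. Apart from the set, only a selection of the genes so named is printed. Cx3cr1, Itgam, Cd44 and Gpihbp1 are among those not shown. Chosen after their values were seen were Eif2s3y, Uty, Cd63, Gpnmb, Nkg7, Cd163, Fcrls, Olfml3, Camk2a, and the striatal and interferon lists. Alternatives were array number as block, single arrays left out, median centring, quantile normalization, dim genes dropped, averaged probe sets, a trended prior, array weights, and sex; omitting array 3 of both groups was added after seeing the data.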

Additional observations from a re-analysis of the deposited data

How the results depend on the processing

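No gene of the phagocyte set passed an adjusted p of 0.05 under any alternative run (limma, lowest adjusted p = 0.0752, for Cd68 with the array number as a replicate block). Leaving out 1 array at a time, 0 of the 9 passed and 0 to 3 had an unadjusted p under 0.05. Of 131 values of single genes under the alternatives, 119 kept their direction and 12 changed sign. With 1 array left out, the difference ran from -0.074 to 0.26 for Trem2, -0.16 to 0.82 for Tyrobp, -0.048 to 0.90 for Cst7, -0.16 to 0.31 for Lpl, -0.22 to 0.74 for Itgax and -0.028 to 0.52 for Axl, the lowest always without labelled KO array 3. Without array 3 of both groups, Trem2 was at -0.016, Cst7 at -0.035, Lpl at -0.12 and Itgax at -0.12. With array weights, Lpl was at -0.032 and Itgax at -0.028. Those weights were 5.18 for labelled KO array 1 and 0.426 to 1.201 for the other arrays, so labelled KO array 1 dominated its group. The median difference of the set ran from -0.05 (without labelled KO array 3) to 0.74 (without labelled KO array 2) with 1 array left out. It was 0.13 with array weights, 0.31 with sex as a covariate and 0.03 without array 3 of both groups. The number of genes of the set whose groups did not overlap, in either direction, was 2 as reported. It was 0 with median centring, 1 with a second quantile normalization and 1 of the 5 genes left when dimmer genes were dropped. It was 4 without array 3 of both groups, and 2 to 4 with 1 array left out. Without labelled KO array 3 it was 4, with Cst7 and Lpl then lower. Groups of fewer arrays overlap less often. All labelled KO arrays lay above all controls for 9.30% of all genes, and for 16.1% without labelled KO array 3. Those shares leave out genes that were lower, so the rise from 2 to 4 has no matching share and is not read as a result. The count of all genes called, 56 as reported, was 215 with the replicate block, 178 without dimmer genes, 1116 with array weights, 0 with sex as a covariate (2292 at an unadjusted p under 0.05) and 89 without array 3 of both groups. It was 129 without labelled KO array 3 and 0 without any 1 of the other 5 (2197 to 2532 at an unadjusted p under 0.05). The cause was not tested. Same-numbered arrays correlated in their deviations from the group means with r of 0.089, 0.166 and 0.294. Differently numbered pairs ran from -0.229 to 0.094, and each labelled KO array correlated most with the control of its own number. Whether the numbers mark a pairing was not tested, and the main fit took none. The block moved the count of calls but called no gene of the set.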

Other observations

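Interferon-induced genes, a list chosen after the data were seen, also were highest in labelled KO array 3 but were not limited to it. Of 12 measured genes, 11 were highest there, where 20.1% of all genes were. All 12 had differences above 0 (47.3% of all genes), also without labelled KO array 3. Their average deviation from the control mean was 0.17, 0.48 and 0.90 in labelled KO arrays 1 to 3, and -0.08 to 0.12 in the controls. Ifit3, an antiviral effector gene, read 7.83, 8.27 and 8.58 against 7.08, 7.29 and 7.33, so its groups did not overlap. Its difference of 0.99 ± 0.17 (SE) did not pass (limma adjusted p = 0.0580). Of the 12 genes, 0 passed and 8 had an unadjusted p under 0.05, where 0.281% and 14.4% of all genes did.

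Transcripts of striatal neurons stood out in the same animal. Drd2, the D2 dopamine receptor gene, read 7.81 in labelled KO array 3 and 6.37 to 6.82 in the other 5 arrays. Of 14 measured striatal genes, 10 were highest in labelled KO array 3, where 20.1% of all genes were.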
